A study of Mus musculus with 31 samples.

Results

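The 10 genes described here encode the transforming growth factor beta (TGF-beta) ligands Tgfb1, Tgfb2 and Tgfb3, their receptors Tgfbr1, Tgfbr2 and Tgfbr3, the latent TGF-beta binding proteins Ltbp1, Ltbp2 and Ltbp3, and the inhibitor Smad7. They were chosen by gene symbol, by a rule that uses no measured value, although earlier results of these data were known. Each matched 1 gene of the 24421 in the count table, and all 10 passed the low-count filter that left 14036 genes for testing.

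RNA was sequenced from cardiac fibroblasts, the cells that make and remodel the matrix of the heart, freshly isolated from C57Bl/6 mice aged 8 to 12 weeks. All groups shared this source and strain, and none carried a stated genetic change or drug. There were 29 RNA libraries in 10 groups, with 3 libraries per group except 2 in 3D-2D. The labels distinguish flat (2D) from three-dimensional (3D) culture, and those that join several such terms were read as successive phases, so that 3D-2D-3D cells would have been moved to 2D and returned to 3D. No time is stated for 3D-2D-3D, 3D-2D-2D, 3D-2D, 3D and 2D. The groups 2D-5days and 3D-5days were labelled with 5 days. The remaining groups were 2D cultures on substrates labelled 0.5 kPa, 8 kPa and 64 kPa, a measure of stiffness. The sources used here do not give the length of each phase, what the cells were held in or on, or how many animals went into a library. They do not say either whether replicate libraries were separate cultures, so the spread that p-values measure is that between libraries and may be technical.

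Total gene counts lay between 8509987 and 29909400 per library. The 10 fibroblast markers were present in every library, at a summed 17118 to 74666 CPM, which are counts scaled to a common library total. Reads of Xist without Y-linked reads beyond 7 counts marked libraries 1 and 2 of 3D-2D-3D, 3D-2D, 3D and 2D. Both kinds of read were present in library 3 of 3D-2D-3D, 3D and 2D and in every library of 3D-2D-2D and of the 5-day groups. On the substrates there were Y-linked reads but only 1 to 7 of Xist. Library 3 stood apart from libraries 1 and 2 in 2D, 3D, 3D-2D-3D and on the substrates, as did library 1 at 5 days. Where leaving out such a library changed a call of the 10 genes, the value without it is given. The 15 macrophage markers, all detected in every library, summed to between 223 and 12018 CPM. The 10 smooth muscle and pericyte markers summed to between 124 and 543 CPM, and the 10 epicardial and mesothelial markers to between 80.04 and 348 CPM. The 10 endothelial markers summed to at most 125 CPM, the 10 cardiomyocyte markers to at most 208 CPM, the 8 Schwann and neural markers to at most 35.2 CPM, the lymphocyte markers to at most 1.23 CPM and the erythroid markers to at most 0.633 CPM.

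TGF-beta is secreted as a latent complex in which the mature dimer is held by its own propeptide, and latent TGF-beta binding proteins tether that complex to the extracellular matrix. Once released, for example by integrins that pull on the complex or by proteases, the ligand binds the type II receptor Tgfbr2, which recruits and phosphorylates the type I receptor Tgfbr1. The type III receptor Tgfbr3, also called betaglycan, presents ligand and is known for its role in the binding of Tgfb2. The active receptors phosphorylate Smad2 and Smad3, and Smad7, itself a target gene of the pathway, counteracts the receptors. In the heart this pathway is best known for turning resting fibroblasts into contractile, matrix-producing cells.

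The promoters of Tgfb1 and Tgfb2 are shown because these ligand genes moved in opposite directions in several comparisons below. Promoter windows from RefSeq on GRCm38.p6, the mm10 build, were searched for 7 of the 10 genes. Those of Tgfb3, Tgfbr3 and Smad7 were not searched. Each sequence is the 250 bases before an annotated start, read 5′ to 3′ on the strand of the gene. Capitals mark the TATA box TATAAA, the GC box GGGCGG and the E-box CACGTG, each searched on both strands.
Tgfb1, chr7:25686752-25687001, plus strand: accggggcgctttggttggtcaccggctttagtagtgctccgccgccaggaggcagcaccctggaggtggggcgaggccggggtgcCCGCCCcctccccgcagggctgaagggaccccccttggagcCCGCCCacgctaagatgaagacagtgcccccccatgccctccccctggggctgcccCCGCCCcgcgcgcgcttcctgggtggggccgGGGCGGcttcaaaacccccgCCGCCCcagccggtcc
Tgfb2, chr1:186705990-186706239, minus strand: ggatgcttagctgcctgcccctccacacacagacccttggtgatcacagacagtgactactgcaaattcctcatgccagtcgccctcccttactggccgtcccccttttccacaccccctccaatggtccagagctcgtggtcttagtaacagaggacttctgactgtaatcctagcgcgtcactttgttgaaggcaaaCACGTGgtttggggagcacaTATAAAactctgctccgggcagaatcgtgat
The Tgfb1 window was 75.2% G or C and held 5 GC boxes, at 164, 123, 67, 36 and 16 bases before the start, with no TATA box and no E-box. The Tgfb2 window was 53.6% G or C and held a TATA box 31 bases and an E-box 51 bases before the start, with no GC box. It also held a core of the cAMP response element, TGACG, at 72 bases. Over 32851 windows of the same length the median was 52.4% G or C. A TATA box occurred in 12.4% of them, a GC box in 32.7%, an E-box in 6.02% and TGACG in 17.8%. The Tgfb2 gene is annotated up to position 186709697, so this window lies before an inner start, and which start the cells used was not tested. Among the other windows, that of Ltbp2 and the first of Tgfbr1 each held 2 GC boxes, and the first of Ltbp1 held 2 overlapping TGACG matches. Tgfbr1 and Ltbp1 each had a further window, at an annotated start further along the gene, that held none of the motifs searched. Neither AP-1 sites (TGANTCA) nor TEAD sites (GGAATG) were found in the windows of the 7 genes, against 6.75% and 12.6% of all windows.

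Between 2D and 3D the 10 genes did not move together. Tgfb1, Tgfb3, Tgfbr2, Tgfbr3 and Ltbp3 were higher in 3D than in 2D, and Tgfb2 was lower. When cells were moved from 3D to 2D, Tgfb1, Tgfb3, Tgfbr2, Tgfbr3 and Ltbp3 were lower than in 3D, while Ltbp2 and Smad7 were higher. When such cells were returned to 3D, Tgfb1, Tgfb3, Ltbp3 and the 3 receptor genes were higher than in 3D-2D, and Tgfb2 and Smad7 were lower. These comparisons use the same 3D and 3D-2D libraries in turn, so they are not independent of each other.

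Differences were called at an adjusted p under 0.05 in edgeR's quasi-likelihood test with Benjamini-Hochberg adjustment over all 14036 genes. Fold changes are on the log2 scale ± standard error, with n = 3 libraries per group and n = 2 for 3D-2D. Where leaving out libraries left 1 in a group, that library was assumed to vary like those of the other groups, which supplied the spread, and values with 1 library on each side are given without a test. Such values still enter the closing counts over all settings. Between 3D and 2D, 6 of the 10 genes were called, 5 higher and 1 lower, against 54% of all genes tested (26.7% higher and 27.3% lower). Between 3D-2D and 3D it was 7, with 2 higher and 5 lower, against 56.5% (28.8% and 27.7%). Between 3D-2D and 2D only Tgfb2 was called, and it was lower, against 14.4% of all genes (6.85% higher and 7.54% lower), while 5 of the 10 were called without 2D library 3 and 0 without either 3D-2D library. Between 3D-2D-3D and 3D-2D 8 were called, 6 higher and 2 lower, against 49.2% (24.2% and 25%). In 3D-2D-3D compared with 3D-2D-2D 6 were called, 4 higher and 2 lower, against 40.4% (19.8% and 20.6%). With libraries scaled by their totals alone, the median of all genes in that comparison shifted by 0.22, with 4747 genes higher and 1893 lower in place of 2782 and 2895, and Ltbp3 (0.69) and Tgfbr2 (0.38) were called as well. At 5 days 7 were called between 3D and 2D, 4 higher and 3 lower, against 32.4% (14.9% and 17.5%), and scaling by library totals turned the split over all genes from 2098 higher and 2450 lower to 2912 and 1877. The share of the 10 genes called was near that of all genes in several of these comparisons, since large parts of the transcriptome differed between the arrangements. The median change over the 10 genes was 0.47 between 3D and 2D and 1.10 between 3D-2D-3D and 3D-2D, where all genes had medians of 0.03 and 0.01. It was -0.70 between 3D-2D and 3D, against -0.02 for all genes. In bulk RNA, fewer cells that express a gene and less of its RNA per cell cannot be told apart.

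**Figure D1:**
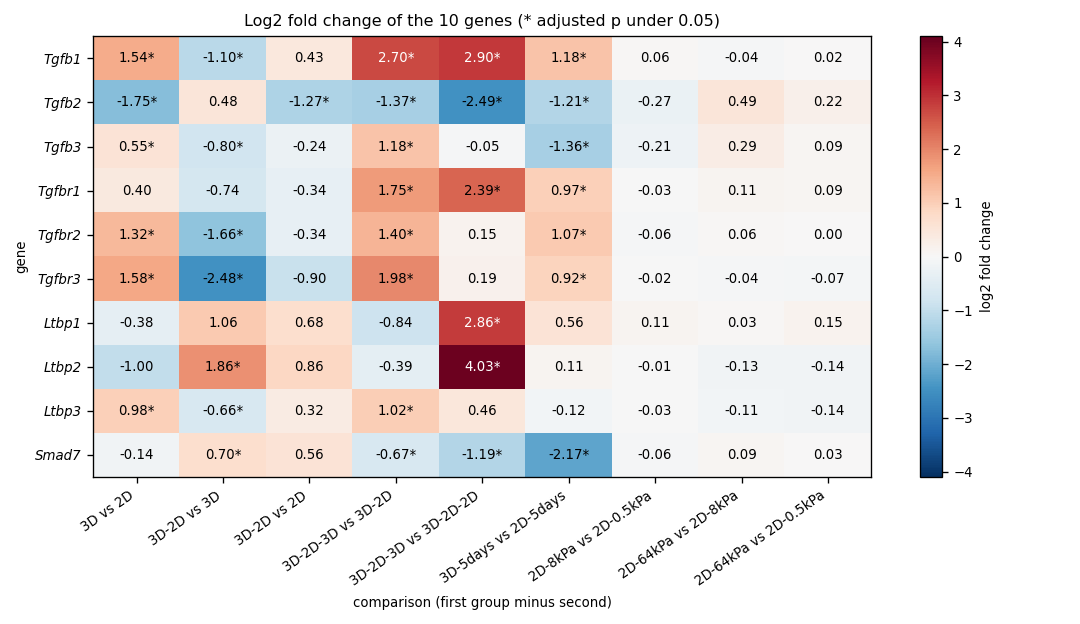
Log2 fold changes of the 10 genes (vertical axis) in 9 comparisons (horizontal axis, first group minus second), coloured from blue (lower) to red (higher), with an asterisk at an adjusted p under 0.05 by edgeR. Tgfb1 was higher in the 4 comparisons whose first group ended in 3D and whose second ended in 2D, Tgfb2 was lower in these 4, and no gene was called between substrates.

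Tgfb1, the isoform most studied in tissue scarring, followed the last arrangement of the cells. The 9 libraries that ended in 3D held 228 to 1002 CPM, and the 20 libraries that ended in 2D held 79.98 to 154 CPM, so the ranges did not overlap. No other gene among the 10 showed such a separation over all 29 libraries. The 2D libraries held 93.2, 79.97 and 138 CPM, the 3D libraries 311, 293 and 301 CPM and the 3D-2D libraries 126 and 154 CPM. The highest values, 1002, 984 and 743 CPM, were in 3D-2D-3D. The group kept in 2D for a further phase, 3D-2D-2D, held 128, 122 and 116 CPM. A second phase in 3D was thus accompanied by more Tgfb1 than any other condition, with a mean 3.02 times that of 3D, a ratio that was not tested.

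The difference in Tgfb1 was 1.54 ± 0.17 (edgeR adjusted p = 1.02e-07) between 3D and 2D. After the move from 3D to 2D it was -1.10 ± 0.19 (edgeR adjusted p = 3.77e-05) against 3D. The difference between 3D-2D and 2D did not pass the threshold, at 0.43 ± 0.18 (edgeR adjusted p = 0.11), but was called without 2D library 3, at 0.70 (adjusted p = 0.00424). With library 3 as the only 2D library it was 0.04. In 3D-2D-3D, Tgfb1 was higher than in 3D-2D by 2.70 ± 0.20 (edgeR adjusted p = 9.13e-10) and higher than in 3D-2D-2D by 2.90 ± 0.17 (edgeR adjusted p = 2.95e-11). At 5 days the values were 132, 108 and 113 CPM in 2D and 318, 228 and 255 CPM in 3D. All 3 libraries in 3D lay above all 3 in 2D, and the difference was 1.18 ± 0.17 (edgeR adjusted p = 8.22e-06). Every called Tgfb1 difference among these kept its direction in all alternative settings tried, and its call in all but the setting with 1 library on each side, which is given without a test.

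Macrophages also make Tgfb1, and their markers differed between groups. Between 3D and 2D, 5 of 15 macrophage markers rose and 0 fell, where 26.7% of all genes tested rose and 27.3% fell. Between 3D-2D and 3D, 10 fell and 0 rose, where 27.7% of all genes fell and 28.8% rose. The 3D libraries held summed macrophage markers of 8797, 6168 and 223 CPM, a 39.4-fold range. Their Tgfb1 values had a 1.06-fold range. With library 3 of 3D and 2D alone, where those markers summed to 223 and 1508 CPM, the Tgfb1 difference was 1.14. The 3D-2D-3D libraries, which had the most Tgfb1, held 233 to 257 CPM of the markers, less than the 473 to 476 CPM in 3D-2D-2D. The part of macrophages in these differences was not tested. At 5 days the markers and Tgfb1 moved in the same direction. The markers summed to 12018, 3188 and 3812 CPM in 3D against 3046, 749 and 742 CPM in 2D. Of the 15, 3 were called higher and 0 lower, against 14.9% and 17.5% of all genes. Their part in the 5-day difference was not tested.

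**Figure D2:**
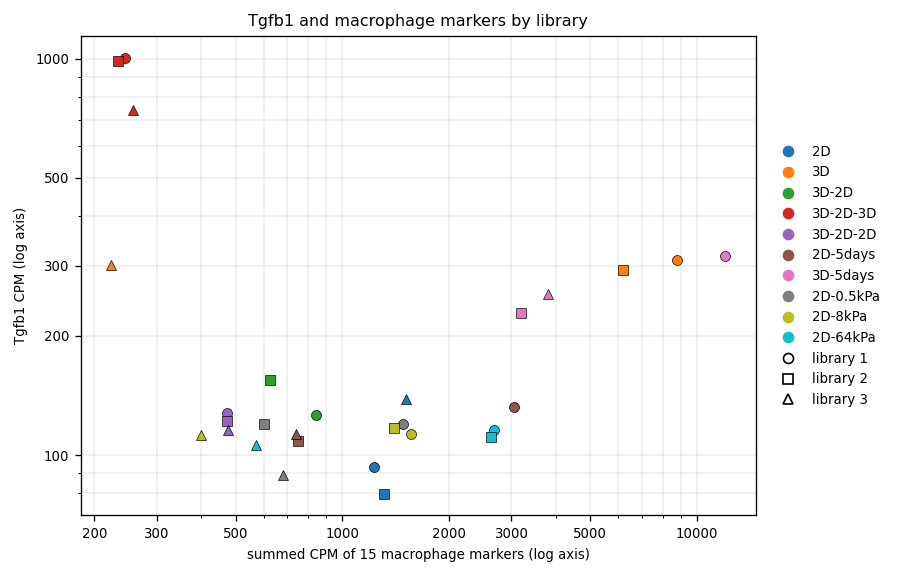
Tgfb1 in CPM (vertical, log axis) against the summed CPM of 15 macrophage markers (horizontal, log axis) in 29 libraries, coloured by group and with 1 symbol per library number. The 3D-2D-3D libraries lie highest at 743 to 1002 CPM of Tgfb1 with 233 to 257 CPM of markers, and the 3D libraries sit near 300 CPM of Tgfb1 at marker sums from 223 to 8797 CPM.

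Tgfb2, the isoform prominent in heart development, was lower in the 4 comparisons in which Tgfb1 was higher. The 2D libraries held 223, 209 and 51.7 CPM and the 3D libraries 49.6, 52.6 and 41.2 CPM. Library 3 of 2D, at 51.7 CPM, fell within the 3D range, and the other 2D libraries lay far above it. The difference between 3D and 2D was -1.75 ± 0.31 (edgeR adjusted p = 5.78e-05). It was -2.10 (adjusted p = 2.27e-09) with libraries 1 and 2 alone and -0.31 between the libraries numbered 3. With the replicate number as a block it was -1.50 (adjusted p = 0.0684) and was no longer called.

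In 3D-2D, Tgfb2 held 57.0 and 76.5 CPM. Compared with 3D the change was 0.48 ± 0.33 (edgeR adjusted p = 0.222), and compared with 2D it was -1.27 ± 0.35 (edgeR adjusted p = 0.0181). That last difference, the only one called between these groups, turned to 0.38 (adjusted p = 0.405) with library 3 as the only 2D library, and it was -0.96 without 2D library 1 and -1.04 without 2D library 2, no longer called in either case. It also lost its call without either 3D-2D library, at -1.09 and -1.50.

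The strongest difference in Tgfb2 appeared after the second phase. The 3D-2D-3D libraries held 26.7, 24.9 and 25.9 CPM and the 3D-2D-2D libraries 148, 138 and 149.6 CPM, with no overlap and little spread in either group. The difference was -2.49 ± 0.31 (edgeR adjusted p = 1.90e-06), and it was -2.48 with libraries 1 and 2 of 3D-2D-3D alone and -2.48 with its library 3 alone. Against 3D-2D the change was -1.37 ± 0.33 (edgeR adjusted p = 0.00159). At 5 days the 2D libraries held 109.9, 91.4 and 87.1 CPM and the 3D libraries 44.2, 38.6 and 42.2 CPM, a difference of -1.21 ± 0.31 (edgeR adjusted p = 0.00412).

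Tgfb3, the isoform often studied in palate development and wound repair, did not show 1 direction between 3D and 2D. It was higher in 3D than in 2D without a stated time and lower in 3D than in 2D at 5 days. The 2D libraries held 163, 155 and 91.0 CPM and the 3D libraries 181, 203 and 214 CPM, and the 3D values were all higher. The difference was 0.55 ± 0.15 (edgeR adjusted p = 0.00309). It was not called with libraries 1 and 2 alone, at 0.25 (adjusted p = 0.0771), or with the replicate block, at 0.60 (adjusted p = 0.126), and between the libraries numbered 3 it was 1.25. At 5 days the 2D libraries held 182, 234 and 224 CPM and the 3D libraries 77.7, 82.6 and 88.4 CPM, with every 3D value below every 2D value. The difference was -1.36 ± 0.15 (edgeR adjusted p = 2.92e-07), and a test of the change between the 5-day contrast and the contrast with no stated time gave -1.92 ± 0.21 (edgeR adjusted p = 2.18e-06).

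After the move from 3D to 2D, Tgfb3 was 107 and 122 CPM, which was -0.80 ± 0.17 (edgeR adjusted p = 0.000369) against 3D. Against 2D it was -0.24 ± 0.16 (edgeR adjusted p = 0.336), and -0.47 (adjusted p = 0.00826) without 2D library 3. With library 3 as the only 2D library the difference was 0.35. Tgfb3 rose again on return to 3D, to 267, 264 and 246 CPM, a change of 1.18 ± 0.17 (edgeR adjusted p = 6.13e-06) against 3D-2D. Cells that stayed in 2D held 272, 271 and 260.4 CPM, and the difference between these second-phase groups was -0.05 ± 0.15 (edgeR adjusted p = 0.833). All libraries of both second-phase groups lay above both 3D-2D libraries, although for 3D-2D-2D this was not tested.

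**Figure D3:**
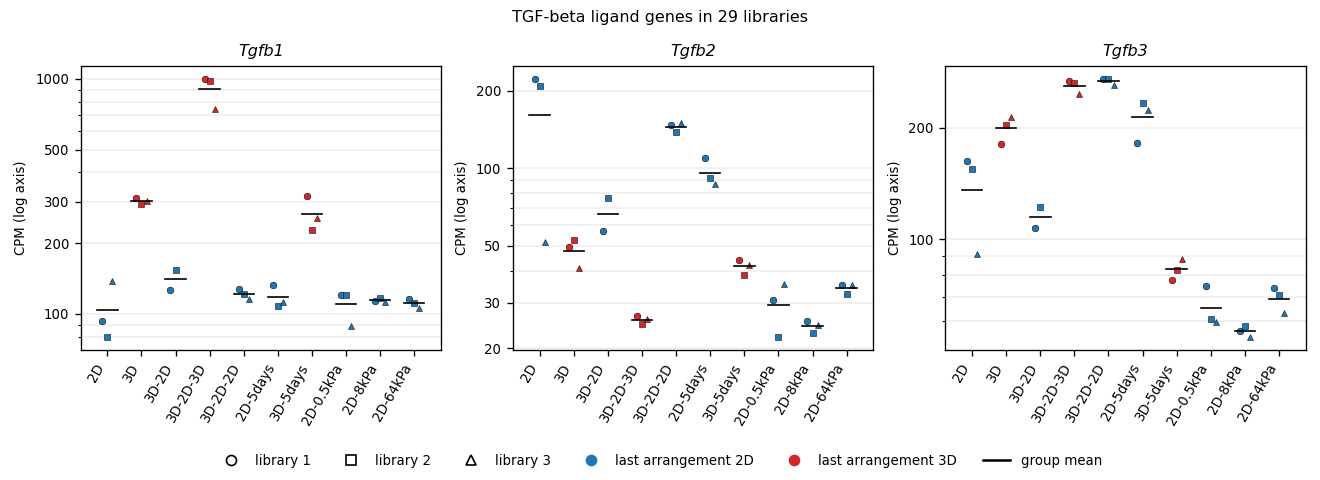
CPM (vertical, log axis) of Tgfb1, Tgfb2 and Tgfb3 in the 10 groups (horizontal), with 1 point per library, a bar at the group mean, red for groups that ended in 3D and blue for groups that ended in 2D. The red points of Tgfb1, from 228 to 1002 CPM, all lie above the blue ones, from 79.98 to 154 CPM, whereas Tgfb2 is lowest in 3D-2D-3D and on the substrates.

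Tgfbr2, which encodes the receptor that first binds the ligand, was higher in 3D in both contrasts of 3D with 2D. The 2D libraries held 158, 147 and 186 CPM and the 3D libraries 455, 452 and 323 CPM, without overlap. The difference was 1.32 ± 0.13 (edgeR adjusted p = 4.09e-08), with 1.55 in libraries 1 and 2 alone and 0.81 in library 3 alone. At 5 days the levels were 328, 304 and 294 CPM in 2D and 625, 640.3 and 686 CPM in 3D, the highest of any group, and the difference was 1.07 ± 0.13 (edgeR adjusted p = 1.59e-06). The move from 3D to 2D brought the lowest levels, 127 and 132 CPM, a change of -1.66 ± 0.16 (edgeR adjusted p = 1.50e-08). In 3D-2D-3D it was 328, 336 and 361 CPM and in 3D-2D-2D 316, 295 and 313 CPM. The former was higher than 3D-2D by 1.40 ± 0.15 (edgeR adjusted p = 1.93e-07), while the difference between the second-phase groups was 0.15 ± 0.13 (edgeR adjusted p = 0.385).

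Tgfbr3, the co-receptor betaglycan, had the largest fall of the 10 genes when cells left 3D. The 3D libraries held 72.1, 75.0 and 77.2 CPM and the 3D-2D libraries 15.1 and 11.6 CPM, a change of -2.48 ± 0.32 (edgeR adjusted p = 1.47e-06). In 2D the values were 16.9, 17.1 and 40.0 CPM, with library 3 well above the others and all 3 below every 3D library. The difference between 3D and 2D was 1.58 ± 0.27 (edgeR adjusted p = 3.74e-05), at 2.09 (adjusted p = 1.03e-06) in libraries 1 and 2 and 0.97 between the libraries numbered 3. Between 3D-2D and 2D it was -0.90 ± 0.31 (edgeR adjusted p = 0.0521), and it was called without 2D library 1 (-1.11), without 2D library 2 (-1.10), with library totals (-0.91) and by DESeq2 (-0.90). Without 2D library 3 it was only -0.35 (adjusted p = 0.349), and with library 3 as the only 2D library it was -1.56. On return to 3D Tgfbr3 was 51.7, 50.3 and 55.9 CPM, up by 1.98 ± 0.32 (edgeR adjusted p = 2.31e-05) from 3D-2D. The 3D-2D-2D libraries reached 47.9, 46.7 and 43.8 CPM, and the difference between these second-phase groups was 0.19 ± 0.26 (edgeR adjusted p = 0.599). In both second-phase groups every library of Tgfbr2 and Tgfbr3 lay above every 3D-2D library, which was tested only for 3D-2D-3D. At 5 days Tgfbr3 was 47.4, 54.6 and 52.9 CPM in 2D and 98.9, 99.1 and 94.4 CPM in 3D, a difference of 0.92 ± 0.26 (edgeR adjusted p = 0.0103).

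Tgfbr1, the signalling type I receptor, separated the second-phase groups. The 3D-2D-3D libraries held 206, 214 and 138 CPM and the 3D-2D-2D libraries 34.5, 35.03 and 36.8 CPM. Every library of the first group lay above every library of the second, and the difference was 2.39 ± 0.35 (edgeR adjusted p = 1.22e-05). Against 3D-2D, at 56.2 and 54.7 CPM, the 3D-2D-3D libraries were higher by 1.75 ± 0.39 (edgeR adjusted p = 0.000842). Between 3D (114, 97.3 and 66.1 CPM) and 2D (70.2, 69.0 and 71.4 CPM) the difference was 0.40 ± 0.33 (edgeR adjusted p = 0.323), not called, with library 3 of 3D below all 2D libraries. Between 3D-2D and 3D it was -0.74 ± 0.38 (edgeR adjusted p = 0.101), also not called.

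At 5 days Tgfbr1 was 84.8, 28.8 and 29.4 CPM in 2D and 145, 68.8 and 66.4 CPM in 3D, and in each group library 1 stood far above the rest. The groups overlapped, since library 1 of 2D exceeded libraries 2 and 3 of 3D. The difference was 0.97 ± 0.34 (edgeR adjusted p = 0.0321). It was not called without 3D library 1, at 0.50, or without 2D library 2 or 3, at 0.73 in either case, and it was 1.68 without 2D library 1. Library 1 of each 5-day group also had the highest sum of macrophage markers in that group, 3046 and 12018 CPM, whose part in the result was not tested.

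Ltbp1 encodes a matrix-bound protein that anchors latent TGF-beta. Its relative Ltbp2 is known not to bind the latent ligand and to work in elastic fibres. Levels of Ltbp1 and Ltbp2 spread more over the groups than those of the other genes. The highest group mean was 13.0 times the lowest for Ltbp1 and 24.9 times for Ltbp2, against 2.54 to 8.76 times for the other 8 genes. Ltbp2 was between 22.7 and 52.0 CPM in all 9 libraries of 3D-2D-2D and the 5-day groups, and between 129 and 749.6 CPM in the other 20 libraries. Those 9 libraries all held both Xist and Y-linked reads. Library 3 of 2D, of 3D and of 3D-2D-3D held both too, and its Ltbp2 values there were 534, 170.5 and 179.8 CPM.

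Between the second-phase groups, Ltbp2 held 523, 503 and 179.8 CPM in 3D-2D-3D and 22.7, 27.1 and 24.1 CPM in 3D-2D-2D. The difference of 4.03 ± 0.50 (edgeR adjusted p = 1.80e-06) was the largest of any of the 10 genes in any comparison tested, and it was 2.88 with library 3 of 3D-2D-3D alone and 4.39 with libraries 1 and 2. Ltbp1 held 149.7, 143 and 287 CPM and 25.9, 28.4 and 25.7 CPM in the same groups, a difference of 2.86 ± 0.49 (edgeR adjusted p = 7.92e-05). In both genes the groups were far apart, while libraries 1 and 2 of 3D-2D-3D carried almost no Y-linked reads and all 3D-2D-2D libraries carried both kinds. Library 3 of 3D-2D-3D, which carried both kinds, gave 3.43 for Ltbp1.

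After the move from 3D to 2D, Ltbp2 rose from 129, 137 and 170.5 CPM to 377 and 679 CPM. The 3D-2D libraries stood far apart from each other, but both lay above every 3D library, and the change was 1.86 ± 0.49 (edgeR adjusted p = 0.00287). Without the higher library, 3D-2D library 2, it was 1.38 (adjusted p = 0.065). Ltbp1 was 350.1 and 344 CPM in 3D-2D and 91.0, 98.6 and 309 CPM in 3D, where library 3 was more than 3 times as high as the others. The change of 1.06 ± 0.50 (edgeR adjusted p = 0.0728) was not called with all libraries and was 1.88 (adjusted p = 0.00221) without 3D library 3. With library 3 as the only 3D library it was 0.16.

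In 2D, library 3 was again the highest, with Ltbp1 at 128, 133 and 387 CPM and Ltbp2 at 170.0, 166 and 534 CPM. Neither gene was called between 3D and 2D, at -0.38 ± 0.45 (edgeR adjusted p = 0.494) for Ltbp1 and -0.997 ± 0.45 (edgeR adjusted p = 0.0634) for Ltbp2. These values turned on single libraries. Ltbp1 was called without 3D library 3, at -1.20 (adjusted p = 0.0263), and with the replicate block, at -0.41 (adjusted p = 0.0291), and without 2D library 3 it was 0.35 (adjusted p = 0.537). Ltbp2 was called without 2D library 1, at -1.27 (adjusted p = 0.0314), without 2D library 2, at -1.28 (adjusted p = 0.0301), and by DESeq2, at -0.96 (adjusted p = 0.0448), whereas without 2D library 3 it was -0.21 (adjusted p = 0.703). Between 3D-2D and 2D the differences were 0.68 ± 0.50 (edgeR adjusted p = 0.381) for Ltbp1 and 0.86 ± 0.49 (edgeR adjusted p = 0.244) for Ltbp2, and without 2D library 3 they were called, at 1.41 (adjusted p = 0.0468) and 1.65 (adjusted p = 0.0157). With library 3 as the only 2D library they were -0.14 for Ltbp1 and -0.0036 for Ltbp2. At 5 days Ltbp1 held 48.5, 33.7 and 38.9 CPM in 2D and 99.0, 41.6 and 38.8 CPM in 3D, a difference of 0.56 ± 0.47 (edgeR adjusted p = 0.386). Ltbp2 held 34.6, 41.0 and 43.3 CPM and 25.9, 50.4 and 52.0 CPM, a difference of 0.11 ± 0.46 (edgeR adjusted p = 0.883).

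Ltbp3, which helps to secrete the latent complex and is best known in bone, changed least over the groups. It was between 307 and 1067 CPM in all libraries, and its highest group mean was 2.54 times its lowest. The 2D libraries held 329, 324 and 506 CPM and the 3D libraries 649, 696 and 943 CPM, without overlap, and the difference was 0.98 ± 0.20 (edgeR adjusted p = 0.000351). After the move to 2D the level was 454 and 513 CPM, a change of -0.66 ± 0.23 (edgeR adjusted p = 0.0191) that was -0.47 (adjusted p = 0.0911) without 3D library 3, -0.57 (adjusted p = 0.128) without 3D-2D library 1 and -0.74 (adjusted p = 0.0568) without 3D-2D library 2, and so was not called in those cases. On return to 3D it was 946, 928 and 1067 CPM, higher than 3D-2D by 1.02 ± 0.23 (edgeR adjusted p = 0.00095). Cells that stayed in 2D held 728, 714 and 691 CPM, also above both 3D-2D libraries, which was not tested. These values lay below every 3D-2D-3D library. The second-phase groups differed by 0.46 ± 0.20 (edgeR adjusted p = 0.0723), which was not called, although it was with libraries scaled by their totals alone. At 5 days Ltbp3 was 785, 880.3 and 923 CPM in 2D and 640.0, 858 and 876 CPM in 3D, with overlapping libraries and a difference of -0.12 ± 0.20 (edgeR adjusted p = 0.682). The 5-day contrast differed from the contrast with no stated time by -1.10 ± 0.29 (edgeR adjusted p = 0.0069).

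Smad7, the inhibitory Smad that is induced by the pathway it restrains, was highest in 3D-2D-2D and in 2D at 5 days. The 3D-2D-2D libraries held 278, 271 and 259.6 CPM and the 2D-5days libraries 261, 280.3 and 277 CPM, ranges that overlap. The lowest group was 3D at 5 days, with 68.5, 56.3 and 57.1 CPM. At 5 days the 3D libraries were therefore all far below the 2D libraries, a difference of -2.17 ± 0.24 (edgeR adjusted p = 2.96e-07). With no stated time the levels were 153, 130.5 and 99.99 CPM in 2D and 125, 125 and 98.8 CPM in 3D, overlapping, and the difference was -0.14 ± 0.23 (edgeR adjusted p = 0.63). The contrasts differed from each other by -2.03 ± 0.32 (edgeR adjusted p = 0.000121).

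In 3D-2D, Smad7 held 151 and 225 CPM. The change from 3D was 0.70 ± 0.25 (edgeR adjusted p = 0.0221), which was 0.39 (adjusted p = 0.323) without 3D-2D library 2 and 0.60 (adjusted p = 0.074) without 3D library 3. The 3D-2D-3D libraries held 144, 139 and 72.4 CPM, with library 3 well below the others. The change from 3D-2D was -0.67 ± 0.25 (edgeR adjusted p = 0.0307), which was -0.36 (adjusted p = 0.387) without 3D-2D library 2 and -0.43 (adjusted p = 0.135) without 3D-2D-3D library 3. Compared with 3D-2D-2D it was -1.19 ± 0.23 (edgeR adjusted p = 0.000251), called in all settings tried.

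**Figure D4:**
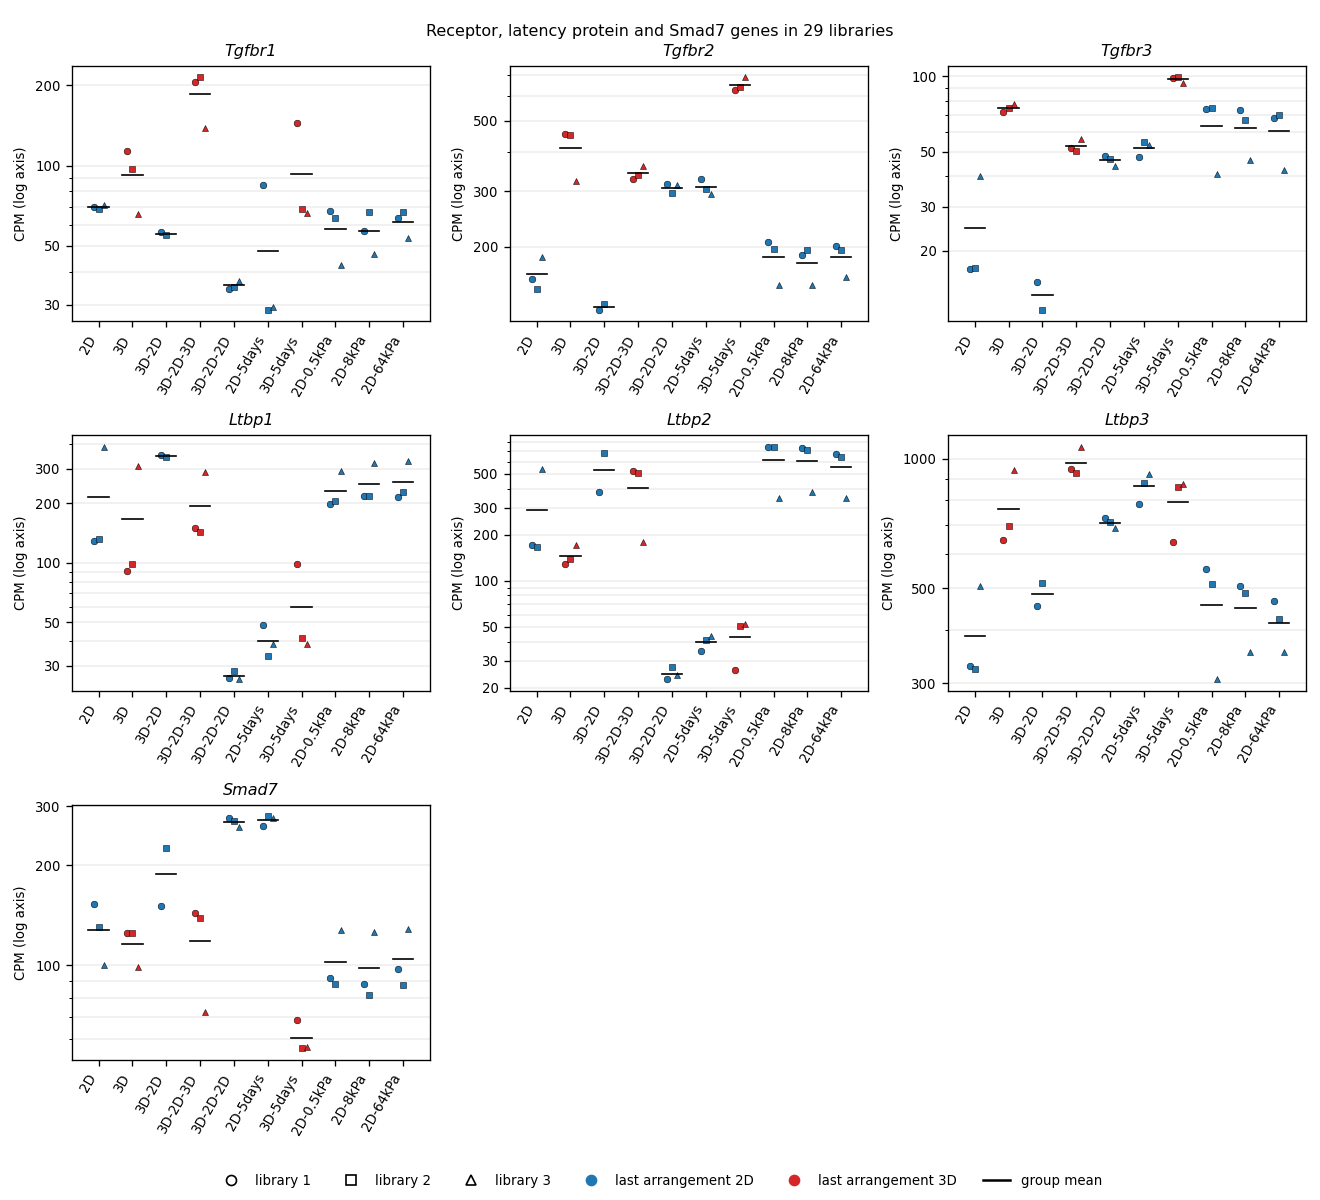
CPM (vertical, log axis) of the receptor genes, the latent TGF-beta binding protein genes and Smad7 in the 10 groups (horizontal), with 1 point per library, a bar at the group mean, red for groups that ended in 3D and blue for groups that ended in 2D. Ltbp2 lies between 22.7 and 52.0 CPM in 3D-2D-2D and both 5-day groups and at 129 CPM or more elsewhere, and Smad7 is lowest in 3D-5days at 56.3 to 68.5 CPM.

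The difference between 3D and 2D was thus not the same at 5 days as without a stated time. Of the 10 genes, 3 differed between these contrasts, Tgfb3, Ltbp3 and Smad7, and all 3 were lower in the 5-day contrast, against 25.5% of all genes called (12.3% higher and 13.2% lower). For Tgfb1 the difference of the contrasts was -0.36 ± 0.23 (edgeR adjusted p = 0.278), for Tgfbr2 -0.25 ± 0.19 (edgeR adjusted p = 0.36) and for Tgfbr3 -0.67 ± 0.37 (edgeR adjusted p = 0.201). None of these passed the threshold, which does not show the contrasts to be alike. Without 2D library 3, Tgfb1 was called at -0.62 (adjusted p = 0.0265) and Tgfbr3 at -1.22 (adjusted p = 0.00489). For Tgfb2 the estimate of 0.54 ± 0.42 (edgeR adjusted p = 0.382) was 0.97 (adjusted p = 0.00127) without 2D library 3 and -0.88 with library 3 of 3D and 2D alone. Ltbp1, at 0.94 ± 0.65 (edgeR adjusted p = 0.311), was called without 3D library 3, at 1.77 (adjusted p = 0.0324), and Tgfbr1, at 0.57 ± 0.47 (edgeR adjusted p = 0.41), without library 1 of 2D at 5 days, at 1.28 (adjusted p = 0.0163). The labels of the groups with no stated time do not say how long the cells were kept, so time and batch cannot be told apart in this comparison. Sex-linked reads differed as well. Every 5-day library and library 3 of 2D and 3D held both Xist and Y-linked reads. Libraries 1 and 2 of 2D and 3D held Xist with at most 7 Y-linked counts. The part of this difference was not tested.

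None of the 10 genes was called between substrates of different stiffness. Tgfb1 held 120.03, 120.02 and 89.2 CPM at 0.5 kPa, 113, 117 and 112 CPM at 8 kPa and 116, 111 and 106 CPM at 64 kPa. Tgfb2 held 30.7, 22.2 and 35.7 CPM, 25.5, 22.99 and 24.6 CPM and 35.3, 32.5 and 35.1 CPM, so that every library at 64 kPa lay above every library at 8 kPa, while the 0.5 kPa range held both. Log2 changes of the 10 genes lay between -0.27 and 0.11 for 8 kPa against 0.5 kPa, between -0.13 and 0.49 for 64 kPa against 8 kPa, and between -0.14 and 0.22 for 64 kPa against 0.5 kPa. By edgeR 0 of 10 genes were called in each of these comparisons, against 0% of all genes, 0 had an unadjusted p under 0.05, and DESeq2 called 0 of the 10.

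With the replicate number as a block, Tgfb2 was called between 64 kPa and 8 kPa at 0.50 (adjusted p = 0.0017) and Tgfb3 at 0.30 (adjusted p = 0.0102), while 608 genes were called in all, against 0 without the block. Tgfb3 held 56.7, 58.4 and 54.6 CPM at 8 kPa and 73.7, 70.6 and 63.3 CPM at 64 kPa, with no overlap, and 74.6, 61.1 and 59.9 CPM at 0.5 kPa. The other genes spread more between libraries of 1 substrate than between substrate means. Library 3 was the lowest on every substrate for Tgfb1, Tgfb3, Tgfbr1, Tgfbr2, Tgfbr3, Ltbp2 and Ltbp3, and the highest for Ltbp1 and Smad7. Ltbp2, for example, held 749.6, 744 and 349 CPM at 0.5 kPa and 676, 646 and 349 CPM at 64 kPa.

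Other genes of the pathway were taken from lists of 25 tested genes of latency and activation, 11 co-receptors and related receptors, 25 Smads and regulators, 30 genes known to respond to TGF-beta and 12 relatives of the family. Between 3D and 2D, 9 latency and activation genes rose and 6 fell, where 26.7% of all genes tested rose and 27.3% fell. Thbs1, which encodes thrombospondin 1, an activator of latent TGF-beta, changed by -2.16 ± 0.27 (edgeR adjusted p = 6.96e-07), from 7143 ± 23.1 CPM in 2D to 1596 ± 153 CPM in 3D (mean ± SD, n = 3). Itgb6, the beta subunit of an integrin that releases the ligand, changed by -2.84 ± 0.97 (edgeR adjusted p = 0.0167) and lost its call without 2D library 1 (-2.60), without 2D library 2 (-2.42) or without 3D library 2 (-2.36). Mmp2, a protease named among activators, rose by 3.87 ± 0.26 (edgeR adjusted p = 1.00e-10). Nrros, an anchor of latent TGF-beta known from myeloid cells, was 2.06 ± 0.81 (edgeR adjusted p = 0.0366), was called no longer without any of 5 libraries, and was -2.18 with library 3 alone, where the summed macrophage markers were 223 CPM in 3D and 1508 CPM in 2D.

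Among the receptors, 4 rose and 2 fell in 3D. Bambi, a decoy receptor without kinase activity, rose by 2.11 ± 0.28 (edgeR adjusted p = 2.06e-06), while Acvrl1, a type I receptor also called ALK1, changed by -1.97 ± 0.20 (edgeR adjusted p = 3.18e-08) and its co-receptor Eng by -0.80 ± 0.18. Of the Smads and regulators 4 rose and 9 fell, among them the ubiquitin ligase Smurf2 at -1.56 ± 0.45, which was -0.29 without 2D library 3. The deubiquitinase Usp11 rose by 1.11 ± 0.22. Response genes went both ways, with 8 higher and 12 lower. Acta2, smooth muscle actin, changed by -5.84 ± 0.47, whereas Tgfbi, named for its induction by TGF-beta, rose by 3.61 ± 0.25 (edgeR adjusted p = 2.24e-10), from 33.7 ± 4.69 to 411 ± 86.1 CPM. Col1a1, a collagen chain, was -0.06 ± 0.33 (edgeR adjusted p = 0.893). Of the relatives, 1 rose and 6 fell, including Inhba, a subunit of activin, at -3.26 ± 0.44 and Bmp4 at -3.67 ± 0.35. The median log2 changes of the lists were 0.02 for latency and activation, 0.31 for the receptors, -0.27 for the regulators, -0.13 for the response genes and -0.59 for the relatives, against 0.03 over all genes. In this comparison 3 of 10 endothelial and 3 of 3 tested Schwann markers rose and 0 fell, 1 epicardial and mesothelial marker rose and 5 fell of 9 tested, 3 smooth muscle and pericyte markers rose and 4 fell of 10, and 2 fibroblast markers rose and 2 fell of 10. Their part in these lists was not tested. Col1a1, Col3a1 and Dcn stand among both the fibroblast markers and the pathway lists, as does Cnn1 for smooth muscle.

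After the move from 3D to 2D the latency and activation genes fell in 11 cases and rose in 4, where 27.7% of all genes fell and 28.8% rose. Thbs1 rose by 3.06 ± 0.29 (edgeR adjusted p = 1.83e-08) and Mmp2 changed by -3.86 ± 0.30 (edgeR adjusted p = 1.16e-09). Of the receptors 2 rose and 4 fell, with Bambi at -1.94 ± 0.32 and Acvrl1 at 1.20 ± 0.21. Of the regulators 7 rose and 4 fell, with Smurf2 at 2.73 ± 0.49, the immunophilin Fkbp1a, which holds the type I receptor inactive, at 1.31 ± 0.14, and Usp11 at -2.17 ± 0.27. Response genes rose in 11 cases and fell in 10. Tgfbi changed by -5.63 ± 0.34 (edgeR adjusted p = 2.11e-11). Of the relatives 5 rose and 2 fell, with Inhba at 4.46 ± 0.48 and Fst, the activin antagonist follistatin, at 3.18 ± 0.24. In the same comparison 8 of 10 endothelial and 3 of 3 Schwann markers fell and 0 rose, beside the 10 of 15 macrophage markers. Of 9 epicardial and mesothelial markers 7 rose and 0 fell, of 10 fibroblast markers 1 rose and 5 fell, and of 10 smooth muscle and pericyte markers 4 rose and 4 fell. The part of these cells in the lists was not tested. List medians stood at -0.93 for latency and activation, -0.63 for the receptors, 0.06 for the regulators, -0.01 for the response genes and -0.01 for the relatives, against -0.02 over all genes.

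Compared with 2D, cells in 3D-2D differed in fewer pathway genes, as in fewer of all genes, of which 14.4% were called against 54% and 56.5% in the comparisons above. Latency and activation genes rose in 2 cases and fell in 4, with Plat, the tissue plasminogen activator, at -1.44 ± 0.25 (edgeR adjusted p = 0.000892) and Itgb8, an integrin subunit, at -2.33 ± 0.46 (edgeR adjusted p = 0.00245). Of the receptors 0 rose and 2 fell, and of the regulators 1 rose and 5 fell. Response genes rose in 3 cases and fell in 4, with Tgfbi at -2.01 ± 0.28 (edgeR adjusted p = 0.000177). Of the relatives 1 rose, Fst at 1.54 ± 0.23, and 3 fell, among them Bmp6 at -2.16 ± 0.32. The medians were small, at -0.30 for latency and activation, -0.17 for the receptors, -0.05 for the regulators, -0.12 for the response genes and -0.24 for the relatives, against 0.01 over all genes.

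On return to 3D, latency and activation genes rose in 11 cases and fell in 4 against 3D-2D, where 24.2% of all genes rose and 25% fell. The integrin subunits Itgb8 and Itgb3 rose by 3.10 ± 0.47 and 3.05 ± 0.52, Plat by 3.07 ± 0.27 and Mmp2 by 2.76 ± 0.29 (edgeR adjusted p = 9.14e-08). Of the receptors 5 rose and 2 fell, with Bambi at 2.02 ± 0.33 and Acvrl1 at -1.89 ± 0.21. Of the regulators 8 rose and 5 fell, with Usp11 at 2.46 ± 0.27. Response genes rose in 6 cases and fell in 9. Tgfbi rose by 4.44 ± 0.32 (edgeR adjusted p = 4.72e-10). Of the relatives 2 rose and 4 fell, with Bmp2 at 4.97 ± 0.76 and Bmp4 at -2.37 ± 0.35. The lists had medians of 0.75 for latency and activation, 0.67 for the receptors, 0.21 for the regulators, 0.23 for the response genes and -0.24 for the relatives, against 0.01 over all genes. Of 10 fibroblast markers 3 rose and 1 fell, of 10 smooth muscle and pericyte markers 2 rose and 4 fell, 3 of 9 epicardial and mesothelial markers fell and 0 rose, and 3 of 3 Schwann markers rose, whose part was not tested.

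Against 3D-2D-2D, the 3D-2D-3D cells had more Itgb3 (4.62 ± 0.48 (edgeR adjusted p = 1.46e-07)) and less of the proprotein convertases Pcsk6 (-3.11 ± 0.38) and Pcsk5 (-2.58 ± 0.56), with 7 latency and activation genes higher and 9 lower. Of the receptors 4 were higher and 2 lower, with Acvrl1 at -3.75 ± 0.21 and Bambi at 2.66 ± 0.30. The Smads and regulators were higher in 13 of 25 cases and lower in 2, against 19.8% and 20.6% of all genes. Tgif1, a repressor that binds Smads, was among the higher ones at 1.51 ± 0.21 (edgeR adjusted p = 6.45e-06), and Smad6, the other inhibitory Smad, was lower like Smad7, at -2.29 ± 0.20 (edgeR adjusted p = 8.78e-09). Response genes were higher in 9 cases and lower in 15, with Timp3 at -3.96 ± 0.40 and Col1a1 at -1.40 ± 0.33. Of the relatives 2 were higher and 6 lower, with Bmp4 at -6.33 ± 0.37 (edgeR adjusted p = 2.30e-11). Medians came to -0.53 for latency and activation, 0.17 for the receptors, 0.39 for the regulators, -0.60 for the response genes and -0.66 for the relatives, against -0.01 over all genes. Here 5 of 10 fibroblast markers, a list that holds Col1a1, and 4 of 10 endothelial markers were lower and 0 higher. Of 10 smooth muscle and pericyte markers 1 was higher and 4 lower, and of 9 epicardial and mesothelial markers 2 were higher and 3 lower. Their part in these values was not tested.

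At 5 days, latency and activation genes were higher in 3D in 4 cases and lower in 10, where 14.9% of all genes were higher and 17.5% lower. Thbs1 changed by -2.72 ± 0.27 (edgeR adjusted p = 8.48e-08), Pcsk6 by -3.06 ± 0.39 and Plau, the urokinase plasminogen activator, by 2.78 ± 0.77. Of the receptors 2 were higher and 2 lower, with Bambi at 2.13 ± 0.30 and Acvrl1 at -2.28 ± 0.20. Of the regulators 2 were higher and 7 lower. Smad6 fell from 351 ± 61.5 CPM in 2D to 32.3 ± 7.00 CPM in 3D, at -3.44 ± 0.21 (edgeR adjusted p = 3.97e-11), the same direction as Smad7. Response genes were higher in 6 cases and lower in 11, with Tgfbi at 4.83 ± 0.27 (edgeR adjusted p = 8.76e-12). Of the relatives 2 were higher and 7 lower, with Bmp4 at -6.33 ± 0.39. In this comparison 8 of 10 endothelial markers were higher and 0 lower, beside the macrophage markers given above. Of 10 smooth muscle and pericyte markers 2 were higher and 4 lower, and 2 of 10 fibroblast and 2 of 9 epicardial and mesothelial markers were lower and 0 higher. Their part was not tested. The medians of the lists came to -0.22 for latency and activation, -0.16 for the receptors, -0.21 for the regulators, -0.27 for the response genes and -0.98 for the relatives, against 0.00 over all genes.

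Smad6 also differed between the 5-day contrast and the contrast with no stated time, by -3.65 ± 0.28 (edgeR adjusted p = 2.35e-08). With it went Itgb5, an integrin subunit, at -2.37 ± 0.25 (edgeR adjusted p = 1.73e-06) and Ltbp4, the latent TGF-beta binding protein outside the 10 genes, at -1.40 ± 0.38 (edgeR adjusted p = 0.00889). In this test 6 latency and activation genes were lower and 0 higher, 1 receptor gene was lower and 0 higher, 3 regulators were higher and 1 lower, and 3 response genes were higher and 4 lower. The shares of all genes were 12.3% higher and 13.2% lower. Between substrates 0 genes of any list were called by edgeR, where 82 to 241 of all 14036 genes had an unadjusted p under 0.05, and by DESeq2. With the replicate block, 64 kPa against 8 kPa gave 3 higher and 3 lower latency and activation genes, 6 higher and 1 lower response genes, 3 higher relatives, 1 higher receptor gene and 1 lower regulator.

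Genes whose group means followed those of the 10 genes most closely over the 10 groups were named as a description. All groups share the same scaling, so these values carry no test. Tgfb1 was most like Cyb561 (Pearson r = 0.98), Anks6 (0.98) and Ric8b (0.98). Tgfb2 was most like Lsm14a (0.96), Dolpp1 (0.92) and Fam220a (0.92). Tgfb3 was most like Col4a6 (0.98), Hsd17b7 (0.97) and Atp9a (0.95). Among the receptors, Tgfbr1 was most like Ppm1d (0.97), Tgfbr2 most like Lppr3 (0.99) and Tgfbr3 most like Rnf122 (0.99). Ltbp1 was most like Ltbp2 (0.98), the only case in which the closest gene was one of the 10, while Ltbp2 was most like Sufu (0.98) and Ltbp3 most like Mau2 (0.99). Smad7 was most like Lhfp (0.97), Id1 (0.97), a target gene of the related BMP pathway, and Inafm2 (0.96). The most opposed pair among the 10 genes was Tgfbr2 and Ltbp2 (-0.70).

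The order of the group means showed how far neighbours could be told apart. For Tgfb1, 3D-2D-3D (909.7 CPM) stood above 3D (302 CPM), which overlapped with 3D-5days (267 CPM). The 7 groups below lay apart from 3D-5days. From 3D-2D (140 CPM) down to 2D (104 CPM), each of them overlapped with the next. For Tgfb2 the order began with 2D (161 CPM) and 3D-2D-2D (145 CPM), which overlapped, and went on to 2D-5days (96.2 CPM) and 3D-2D (66.7 CPM), each apart from the next, before the remaining 6 groups at 24.4 to 47.8 CPM. The 2D libraries ranged from 51.7 to 223 CPM, though, which spans 2D-5days and 3D-2D and reaches into 3D. For Tgfb3 the second-phase groups came first and overlapped, and the substrates came last. For Tgfbr2 3D-5days (650.5 CPM) stood alone above 3D and 3D-2D-3D, which overlapped, and 3D-2D (129 CPM) stood alone at the bottom. For Tgfbr3 the first group was 3D-5days (97.4 CPM), and the last were 2D (24.7 CPM) and 3D-2D (13.4 CPM), each apart from its neighbour. For Tgfbr1, 8 of 9 pairs of neighbouring groups overlapped. The same held for 7 of 9 pairs for Tgfb1, Ltbp1, Ltbp2, Ltbp3 and Smad7, 6 for Tgfbr3, 5 for Tgfb2 and Tgfbr2 and 4 for Tgfb3.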

How the data were processed

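The deposited values are whole-number counts of reads by gene symbol for each of 29 RNA libraries, which the authors left unnormalized. The submitters' processing notes name TopHat, HTSeq, Bowtie and MACS2 without version or role, and the mm10 build. The sources used here name no annotation or strand setting, so reads of overlapping or antisense genes cannot be told apart. Lines that name no gene, such as reads not uniquely aligned, held 21.8% to 34.1% of a library's reads and were left out. The 2 ATAC-seq libraries were not analysed here.

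Groups were taken from the sample titles. Counts were fitted with edgeR 4.0.16 (limma 3.58.1, R 4.3.3) as 1 model of all 29 libraries with 1 mean per group, TMM factors (0.868 to 1.10), filterByExpr and robust quasi-likelihood tests, with Benjamini-Hochberg adjustment over 14036 genes. CPM are counts scaled by effective library totals, and log2 CPM used a prior count of 2. Total gene counts of 8509987 to 29909400 per library set the precision, and errors reflect how libraries of a group differ. No pair of libraries agreed within sampling noise. The script was tested on simulated data. The members, lists and comparisons were chosen with earlier results of these data known. All 10 genes are named, of each pathway list up to 4 called genes of largest change per comparison, given in part, and for likeness the 3 genes of highest Pearson r among genes averaging 3 or more on the log2 CPM scale. Some list genes are counted but not reported here. Values of Tgfbi, Col1a1, Acta2 and Smad6 where outside that rule, and other list genes repeated across comparisons, were chosen after their values were seen.

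Replicate numbers come from the titles. They were taken as pairs where deviations from group means correlated above 0.1 for all pairs of a comparison: 3D with 2D (0.141 to 0.232), the 5-day groups (0.288 to 0.572) and the 3 substrate comparisons (0.191 to 0.753). In some cases a library of another number correlated more strongly. This held for library 1 between 3D and 2D (0.165 against 0.141) and libraries 2 (0.317 against 0.288) and 3 (0.346 against 0.337) at 5 days. It also held for library 2 between 8 kPa and 0.5 kPa (0.502 against 0.350) and between 64 kPa and 0.5 kPa (0.530 against 0.191). Equal numbers are therefore not shown to be true pairs. Alternatives were scaling by RLE factors or by library totals, dropping the low-count filter or setting it to 1 CPM in 3 libraries, fitting only the groups compared, the replicate block, DESeq2 1.42.0, subsets of libraries, and leaving out each library. Summing the most alike libraries was chosen after seeing the data. Promoter windows came from RefSeq on GRCm38.p6.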

Additional observations from a re-analysis of the deposited data

Results flagged for a closer look

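For 3 of the 10 genes the 3D minus 2D difference at 5 days departed from the one with no stated time, by edgeR's test of the difference itself with Benjamini-Hochberg adjustment. Tgfb3 departed by -1.92 ± 0.21 (edgeR adjusted p = 2.18e-06), being higher in 3D in 3 of 3 libraries with no stated time and lower in 3 of 3 at 5 days. Smad7 departed by -2.03 ± 0.32 (edgeR adjusted p = 0.000121), with overlapping libraries with no stated time and every 3D library below every 2D library at 5 days. Ltbp3 departed by -1.10 ± 0.29 (edgeR adjusted p = 0.0069), with 3 of 3 libraries higher in 3D with no stated time and overlapping libraries at 5 days. With library 3 as the only library of 3D and of 2D, the values were -2.59 for Tgfb3, -2.15 for Smad7 and -1.02 for Ltbp3.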

How the results depend on the processing

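Of 1550 values of the 10 genes under the alternative settings, 1385 kept their direction and their side of the threshold, 42 lost a call, 50 gained one and 71 uncalled values moved. The reversed values were Tgfb2 between 3D-2D and 2D with library 3 as the only 2D library (0.38), Tgfb2 in the difference between the contrasts with library 3 of 3D and 2D alone (-0.88), and Nrros with library 3 alone, at -2.18 for 3D against 2D and 1.81 for 3D-2D against 3D. The cause was not tested. With the most alike libraries summed, the number of the 10 genes called was 4 for 3D-2D against 3D, 0 for 3D-2D against 2D, 4 for 3D-2D-3D against 3D-2D and 4 at 5 days, with fewer libraries in each fit. For 3D-2D against 2D it was 2 with the filter of 1 CPM, with DESeq2, with library totals and with RLE factors, 0 with only the groups compared and 5 with libraries 1 and 2 as the only 2D libraries. In the difference between the contrasts it was 6 with libraries 1 and 2 of 3D and 2D alone. Leaving out 1 library gave 6 to 7 for 3D against 2D, 4 to 7 for 3D-2D against 3D, 0 to 5 for 3D-2D against 2D, 7 to 8 for 3D-2D-3D against 3D-2D, 6 in each case against 3D-2D-2D, 6 to 7 at 5 days, 3 to 6 for the difference between the contrasts and 0 in each case between substrates. Without 3D-2D library 2 the count against 3D was 4. Against 2D it was 5 without 2D library 3 and 0 without 3D-2D library 1 or 2.

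With the replicate block, 2 of the 10 genes were called between 64 kPa and 8 kPa. For 3D-2D against 2D, where the numbers do not pair the libraries by the check (-0.00742 to 0.0451), the block gave 8. Where the numbers were taken as pairs, the block ended the calls of Tgfb2 and Tgfb3 between 3D and 2D, added Ltbp1 there (-0.41) and in the difference between the contrasts (0.86), and changed no call of the 10 genes at 5 days. Over all genes, the 7936 called between 3D-2D and 3D became 4452 with libraries summed. The 2019 between 3D-2D and 2D became 0 with libraries summed, 523 with only the groups compared, 6264 with the block, 180 with library 3 as the only 2D library, 817 and 1147 without 2D library 1 or 2 and 797 and 171 without 3D-2D library 1 or 2. The 6902 between 3D-2D-3D and 3D-2D became 3728 with libraries summed, and the 5677 against 3D-2D-2D became 3278 with library 3 of 3D-2D-3D alone. The 4548 at 5 days became 2170 with libraries summed and 2991 with only the groups compared, and the 3583 in the difference between the contrasts became 1042 and 2156. The block gave 2 genes between 8 kPa and 0.5 kPa and 608 between 64 kPa and 8 kPa, against 0 without it. Scaling by library totals shifted the median of all genes by 0.16 for 3D against 2D, -0.16 for 3D-2D against 3D, 0.22 for 3D-2D-3D against 3D-2D-2D and 0.13 at 5 days. It called 4747 genes higher and 1893 lower in the third of these, against 2782 and 2895, and 2912 and 1877 at 5 days, against 2098 and 2450. Counts over the pathway lists stayed within 1.5 times in 1351 of 1550 cases.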
